A study of Mus musculus with 4 samples.

Results

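Transcripts of 7 enzymes that set the supply of deoxynucleotides were followed through mouse morula and blastocyst wells that carried a control or an NKX1-2 morpholino. The 7 genes (Tk1, Tyms, Rrm1, Rrm2, Dut, Dctpp1 and Samhd1) are 7 of the 55453 genes in the count tables, and all 7 were detected and passed the filter on low counts in every comparison. They were chosen by name after the difference between NKX1-2 and control wells had been seen, with Tk1 and Tyms higher and Rrm1 lower in NKX1-2 wells. That difference is therefore described for them without a test. The difference between blastocyst and morula was not the stated ground of the choice and is tested. It uses the same sums, so its p-values are not independent of the choice.

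The study injected mouse embryos with morpholinos, synthetic antisense oligomers that keep a chosen RNA from being translated or spliced. The target was the homeobox factor NKX1-2. The groups are control and NKX1-2 morpholino at the morula and at the blastocyst, each present on 2 plates (replicates 1 and 2) with 48 wells of each morpholino on each plate. Strain, the number of embryos behind a plate and whether a well holds 1 cell are not stated beyond a library source of single-cell transcriptomes. Between the stages, p-values measure the spread between plates. Between the morpholinos, compared within plates, they measure how the difference varies from plate to plate. Either spread may be technical. Every well of a plate shared its stage, so stage and plate processing cannot be told apart. Nkx1-2 itself had 0 counts in all wells, which allows levels of up to 1.25 to 2.77 CPM in a sum (3 counts, counting error only), and a morpholino need not lower its target's RNA, so the knockdown is not checked by these counts.

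Of 384 wells, 368 reached 2000 detected genes, and their counts were summed by plate and morpholino into 8 sums of 1084312 to 2398605 counts. A level is given in CPM, a gene's counts scaled to a sum of 1000000 counts. Wells labelled morula were higher in Tfap2c, Tead4 and Klf2, and blastocyst wells in Krt18, Dab2 and Lrp2 (115.7 to 161.5 CPM for Lrp2 against 0.843 to 4.80 in morula sums). All but Klf2 are from the list of trophectoderm markers, and Krt8 of that list overlapped between the stages. That list summed to 636.9 to 713.4 CPM in control morula and 653.9 to 657.0 in control blastocyst sums. The inner cell mass list, with Klf2, summed to 1274.7 to 1301.2 and 275.8 to 363.4 CPM. The stage is thus taken from the labels. Markers of cumulus cells, fibroblasts and blood lay between 0 and 10.7 CPM, with Inha, Fshr and Col3a1 at 0 in all 8 sums. Wells with Xist and no Y-linked count were spread unevenly over the morpholinos: 25 control and 10 NKX1-2 wells in morula replicate 1, 27 and 23 in morula replicate 2, 15 and 35 in blastocyst replicate 1, and 6 and 20 in blastocyst replicate 2. Values within those wells are therefore given beside the results.

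Cells make deoxynucleotides by reducing ribonucleotides, a step carried out by ribonucleotide reductase, whose large catalytic subunit is Rrm1 and whose small radical-bearing subunit is Rrm2. Thymidylate is made by thymidylate synthase (Tyms), which methylates dUMP, or recovered from thymidine by the cytosolic thymidine kinase Tk1. The remaining 3 members remove nucleotides: Dut splits dUTP to dUMP and so feeds Tyms while it keeps uracil out of DNA, Dctpp1 splits dCTP and its modified forms, and Samhd1 splits dNTPs to nucleosides. As a group they are thus enzymes of the deoxynucleotide pool, not of synthesis alone. The early embryo divides rapidly, and Tk1, Tyms and Rrm2 are textbook S-phase transcripts in cycling cells.

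The sequences before the start sites of Tk1, Tyms and Rrm1, the genes named in the choice of the set, are shown first, because 2 of them were higher and 1 was lower in the same wells. They are taken from RefSeq on GRCm38.p6, in which all 7 members matched a promoter entry by symbol, and bases that an annotated transcript covers are left out. Capitals mark the CCAAT box (CCAAT), the GC box (GGGCGG) and the YY1 core (ATGGCGGC).
Rrm1, chr7:102441445-102441694, plus strand: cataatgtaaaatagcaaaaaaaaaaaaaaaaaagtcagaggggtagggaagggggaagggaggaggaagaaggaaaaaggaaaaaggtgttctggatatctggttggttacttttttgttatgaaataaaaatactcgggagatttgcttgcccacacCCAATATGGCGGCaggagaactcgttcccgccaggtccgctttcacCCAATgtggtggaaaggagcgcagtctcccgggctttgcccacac
Tyms, chr5:30073626-30073875, minus strand: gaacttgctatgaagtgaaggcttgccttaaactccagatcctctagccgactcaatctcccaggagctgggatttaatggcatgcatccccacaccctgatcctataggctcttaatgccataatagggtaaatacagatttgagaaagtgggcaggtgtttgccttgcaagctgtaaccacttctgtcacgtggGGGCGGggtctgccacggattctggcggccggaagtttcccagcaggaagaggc
Tk1, chr11:117826093-117826264, minus strand: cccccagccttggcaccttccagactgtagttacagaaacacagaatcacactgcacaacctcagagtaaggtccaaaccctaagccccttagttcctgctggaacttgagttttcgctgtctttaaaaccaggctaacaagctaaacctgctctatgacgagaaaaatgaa

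Rrm1 held 2 CCAAT boxes, 91 and 45 bases before the RefSeq start, and the first ran directly into a YY1 core. Tyms held a GC box 54 bases before its start. Tk1 held a GC box 13 bases before its RefSeq start, in the 78 bases left out of the printed run. Over all 32851 promoters with a window of 250 bases and both strands searched, 33.8% held a CCAAT box, 32.7% a GC box and 1.03% the YY1 core. A GC box was found in 6 of the 7 members, all but Rrm1, and a CCAAT box in Rrm1, Rrm2 and Dctpp1. This search used the full 250 bases before the RefSeq start, bases of annotated genes included. The Dut window lay wholly inside the annotated Dut gene, and those of Tk1, Rrm2, Dctpp1 and Samhd1 did so in part. No member held the E2F letters TTTNNCGC, which 4.28% of all promoters held. These matches describe the letters of the windows and do not show a bound factor.

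The 7 levels differed widely. Divided by the summed length of each gene's annotated exons, control morula wells held 220.1 ± 18.4 CPM per kb of Dctpp1, 150.1 ± 8.26 of Rrm2 and 107.7 ± 1.58 of Dut (SD, n = 2 plates). Below these lay Tyms with 75.1 ± 8.63 CPM per kb, Tk1 with 42.8 ± 10.4, Rrm1 with 4.36 ± 0.617 and Samhd1 with 1.33 ± 0.550. In control blastocyst wells the order was the same, although Rrm2 at 191.1 ± 29.8 CPM per kb and Dut at 177.3 ± 12.2 overlapped over plates and so did not differ beyond their spread. The morula plates kept all neighbours in this order apart, and so did the blastocyst plates for the rest. Per length, the message of the small reductase subunit thus exceeded that of the large one in every control plate, with the exons of all isoforms counted in the length, 11012 bases for Rrm1 and 2771 for Rrm2. This order holds only if counts grow with transcript length. The labels name both 10x Genomics and a TruSeq polyA protocol, and for counts of transcript ends the division would not apply. Undivided, control morula wells averaged 457.6 ± 52.5 CPM of Tyms, 415.8 ± 22.9 of Rrm2, 259.7 ± 3.81 of Dut, 222.4 ± 54.3 of Tk1 and 148.8 ± 12.4 of Dctpp1. The plates did not keep this order. Rrm2 (432.0 CPM) lay above Tyms (420.4) in morula replicate 1, and Tk1 (260.8) above Dut (257.0) in replicate 2. In control blastocyst wells Rrm2 averaged 529.6 ± 82.5 CPM and Tyms 440.3 ± 30.6.

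**Figure D1:**
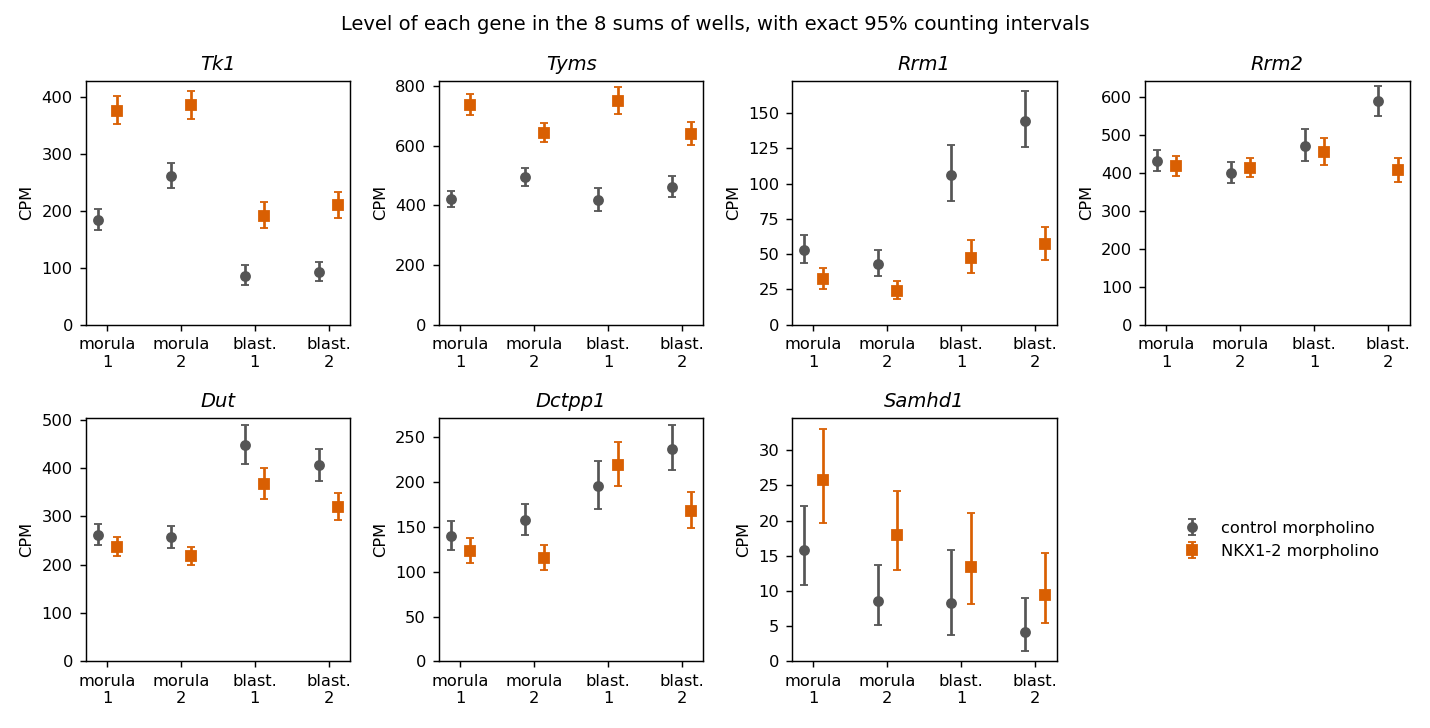
CPM of each gene (y axis, from 0) in the 4 plates (x axis), control as grey circles and NKX1-2 as orange squares, with exact 95% intervals that cover counting error only. The squares lie above the circles on every plate for Tk1, Tyms and Samhd1 and below them for Rrm1 and Dut.

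Between the morpholinos, compared within each plate, both thymidylate enzymes were higher in NKX1-2 wells. The salvage kinase Tk1 (chr11:117815526-117826092, minus strand, GRCm38) stood at 184.0 CPM in control and 376.0 in NKX1-2 wells of morula replicate 1, and at 260.8 and 385.2 in morula replicate 2. In blastocyst replicate 1 it stood at 85.8 and 191.2 CPM, and in replicate 2 at 92.4 and 209.5. Every NKX1-2 sum lay above the control sum of its plate, and within a stage the groups did not overlap. The fitted difference was 0.78 ± 0.14 (log2, SE) in the morula, 1.72-fold, and 1.14 ± 0.16 in the blastocyst, 2.21-fold.

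Tyms (chr5:30058202-30073617, minus strand), the enzyme that makes thymidylate from dUMP, stood at 420.4 CPM in control and 738.4 in NKX1-2 wells of morula replicate 1, and at 494.7 and 644.1 in replicate 2. The blastocyst plates held 418.7 and 749.9 CPM in replicate 1 and 462.0 and 640.8 in replicate 2. All 4 control sums lay below all 4 NKX1-2 sums, across stages as well. The fitted difference was 0.58 ± 0.13 in the morula and 0.63 ± 0.13 in the blastocyst (1.55-fold). Plates of 1 stage differed among themselves: leaving out 1 morula plate moved the morula value of Tyms to 0.36 or 0.84, and that of Tk1 to 0.54 or 1.05. The Tk1 difference in the blastocyst minus that in the morula was 0.37 ± 0.22, and it was 0.61 without morula replicate 1 and 0.10 without morula replicate 2, while for Tyms it was 0.05 ± 0.18 and ran from -0.20 to 0.28 with 1 plate left out.

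The pseudogene entry Tyms-ps held 237 counts over the 8 sums against 8502 for Tyms, with 0 counts in control wells of blastocyst replicate 1, and 5.23% of the 31-base stretches of Tyms occur in it. Its average difference between the morpholinos was 1.19 ± 0.45 and did not pass edgeR's quasi-likelihood test (adjusted p = 0.21). Some of these counts may be reads of Tyms, since how the authors placed reads that fit more than 1 gene is not given in the sources used here.

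The 2 reductase subunits had different values. Rrm1 (chr7:102441695-102469771, plus strand), the catalytic subunit, stood at 52.8 CPM in control and 32.0 in NKX1-2 wells of morula replicate 1, and at 43.2 and 23.8 in replicate 2. In blastocyst replicate 1 it stood at 106.1 and 47.4 CPM, and in replicate 2 at 144.4 and 57.0. The NKX1-2 sum was the lower one on every plate, and the 2 groups did not overlap within a stage. These sums rest on 57 to 211 counts. The fitted difference was -0.80 ± 0.20 in the morula (0.574 of the control level) and -1.28 ± 0.18 in the blastocyst (0.411 of it).

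Rrm2 (chr12:24708241-24714146, plus strand), the partner subunit, showed no such difference in the morula, where it stood at 432.0 CPM in control and 416.8 in NKX1-2 wells of replicate 1, and at 399.6 and 413.2 in replicate 2. The blastocyst plates held 471.3 and 454.6 CPM in replicate 1 and 587.9 and 406.4 in replicate 2. The sign was mixed over the plates, and blastocyst replicate 2 alone had a gap larger than its counting intervals. Fitted values were -0.02 ± 0.12 in the morula and -0.32 ± 0.13 in the blastocyst, where leaving out replicate 2 gave -0.12. About 11.98% of the 31-base stretches of Rrm2 occur in other genes, mostly predicted ones.

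**Figure D2:**
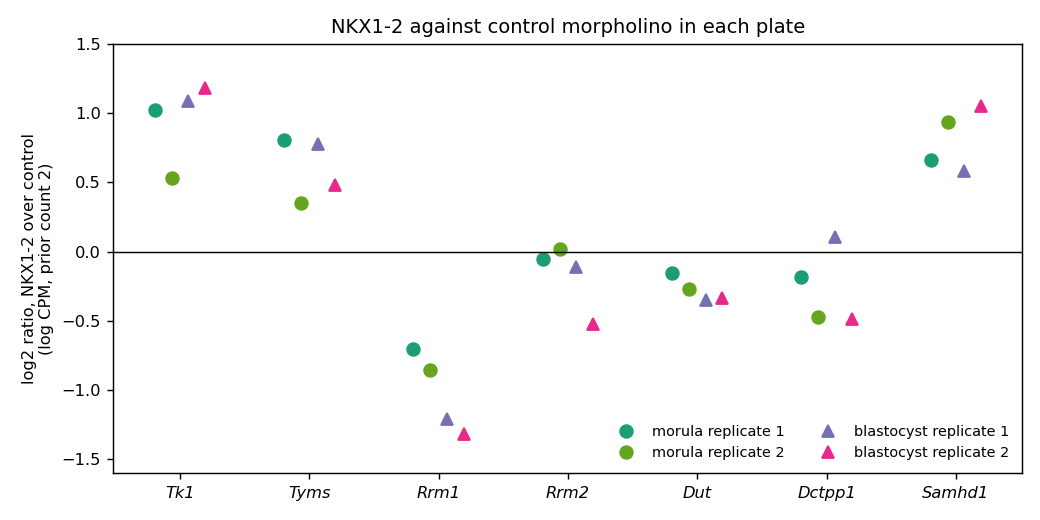
Log2 ratio of NKX1-2 over control (y axis) for each gene (x axis) in the 4 plates, circles for morula and triangles for blastocyst; log CPM was taken after adding 2 prior counts. All 4 points lie above 0 for Tk1, Tyms and Samhd1 and below 0 for Rrm1 and Dut, with Rrm1 reaching -1.32.

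The balance between the enzymes can be read from ratios of counts within a sum, which do not depend on scaling between sums. For each Rrm1 count, morula replicate 1 held 7.96 Tyms counts in control and 23.1 in NKX1-2 wells, and replicate 2 held 11.4 and 27.1. In blastocyst replicate 1 the same ratio was 3.95 and 15.8, and in replicate 2 it was 3.20 and 11.2. The ratio of Rrm2 to Rrm1, the 2 subunits of 1 enzyme, went from 8.18 to 13.01 and from 9.24 to 17.4 in the morula plates, and from 4.44 to 9.58 and from 4.07 to 7.14 in the blastocyst plates. These ratios are counts per count, not molecules per molecule, since the gene lengths differ. For comparison, the ratio of Tk1 to Tyms went from 0.438 to 0.509 in morula replicate 1 and from 0.200 to 0.327 in blastocyst replicate 2. Being built from the chosen genes, the ratios carry no test.

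**Figure D3:**
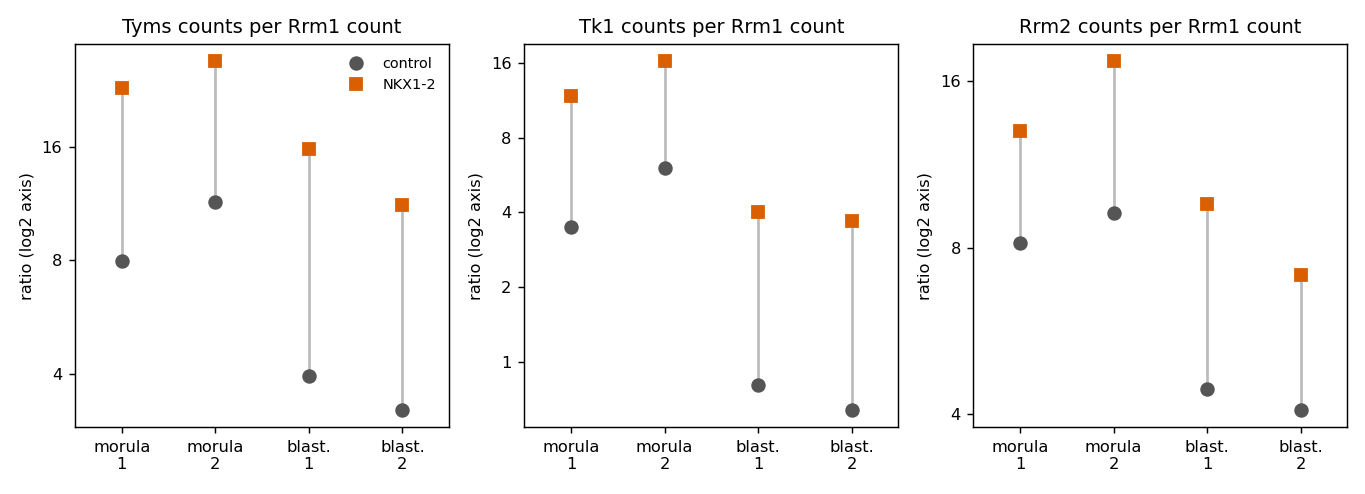
Counts of Tyms, Tk1 and Rrm2 for each count of Rrm1 (y axis, log2 scale) in the 4 plates, control as circles and NKX1-2 as squares joined by a line. On every plate the square lies above the circle, and for Tk1 the control values fall below 1 in both blastocyst plates.

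Of the enzymes that split nucleotides, Dut (chr2:125247190-125258608, plus strand), which supplies dUMP to Tyms, stood at 262.4 and 236.5 CPM in control and NKX1-2 wells of morula replicate 1 and at 257.0 and 217.2 in replicate 2. In the blastocyst it stood at 448.2 and 367.5 CPM in replicate 1 and at 406.5 and 319.8 in replicate 2. It was lower in NKX1-2 wells on all 4 plates, by -0.21 ± 0.12 in the morula and -0.34 ± 0.12 in the blastocyst.

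Dctpp1 (chr7:127256959-127260709, minus strand), which hydrolyses dCTP, had no single direction: 140.0 and 123.1 CPM in morula replicate 1, 157.5 and 115.5 in morula replicate 2, 195.5 and 219.5 in blastocyst replicate 1, and 237.5 and 167.9 in blastocyst replicate 2. Its fitted differences were -0.33 ± 0.16 and -0.20 ± 0.16, and the blastocyst value was 0.10 without replicate 2. Samhd1 (chr2:157097533-157135265, minus strand), the dNTP hydrolase, was scarce, with 6 to 61 counts in a sum. It stood at 15.8 and 25.7 CPM in morula replicate 1, 8.65 and 17.9 in replicate 2, 8.30 and 13.5 in blastocyst replicate 1, and 4.11 and 9.49 in replicate 2. NKX1-2 wells were higher on every plate, by 0.84 ± 0.31 in the morula and 0.89 ± 0.45 in the blastocyst, but the counting intervals of control and NKX1-2 sums overlap on each plate.

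In all, 3 members were higher in NKX1-2 wells on all 4 plates, 2 were lower on all 4 and 2 were mixed. Of all 10873 genes tested, 24.0% had 1 direction on all 4 plates. The share of all genes whose control and NKX1-2 sums did not overlap was not counted. By edgeR's quasi-likelihood test with Benjamini-Hochberg adjustment, the share of all genes past an adjusted p of 0.05 was 0.552% for morula wells, 0.727% for blastocyst wells, 2.9% for the average of both and 0.0184% for the difference between the stages. Since the contrast chose the members, nothing is read from their place against these shares.

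Within the wells that had Xist and no Y-linked count, the 3 leading genes kept their direction. These wells are part of those in which the genes were chosen, so this is a description. Tk1 was higher by 1.05 ± 0.21 in the morula and 1.38 ± 0.27 in the blastocyst, Tyms by 0.61 ± 0.17 and 0.75 ± 0.18, and Rrm1 differed by -0.55 ± 0.32 and -1.62 ± 0.30. Samhd1 did not keep it: its values were -0.25 ± 0.54 in the morula and -0.80 ± 0.72 in the blastocyst, on 4 to 16 counts a sum. Dut turned to 0.19 ± 0.21 in the blastocyst, with 252.2 CPM in control and 354.7 in NKX1-2 wells of replicate 1 and 287.2 and 272.1 in replicate 2. Samhd1 and the blastocyst value of Dut thus depend on which wells are counted, and the part of the embryos' sex in them was not tested further. Gata3, 1 of 9 trophectoderm markers read, also differed, with 5.76 to 10.2 CPM in control and 25.3 to 34.6 in NKX1-2 morula sums. Krt18 and Tfap2c were lower in NKX1-2 morula sums. Summed over the 9 markers, control morula sums held 636.9 to 713.4 CPM and NKX1-2 sums 651.2 to 687.4. In the blastocyst the summed markers held 653.9 to 657.0 CPM in control and 688.3 to 854.7 in NKX1-2 sums. Inner cell mass markers differed in the morula too. Nanog (49.0 to 55.6 against 64.6 to 67.4 CPM) and Esrrb (42.7 to 45.4 against 61.1 to 69.2) were higher in NKX1-2 sums, and Fgf4 and Klf2 were lower. Summed, that list held 1274.7 to 1301.2 CPM in control and 1227.8 to 1333.7 in NKX1-2 morula sums. The part of these markers in the values of the 7 genes was not tested.

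**Figure D4:**
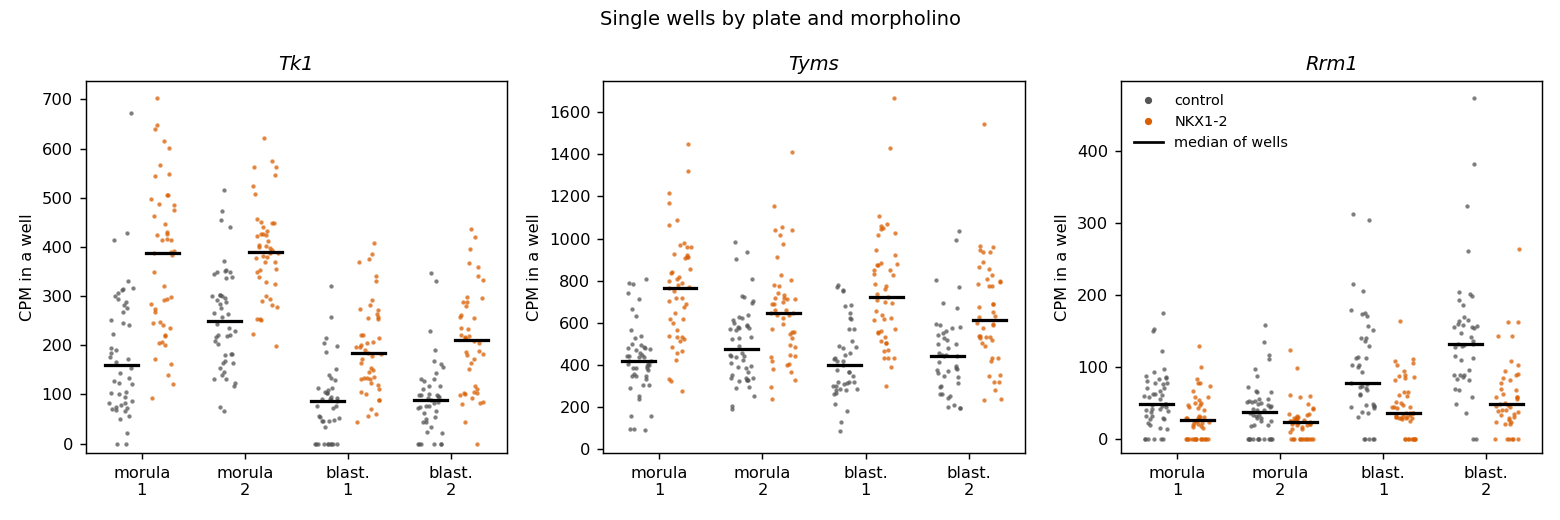
CPM of Tk1, Tyms and Rrm1 in single wells (y axis), each dot a well, for the 4 plates and both morpholinos (x axis), with a bar at the median of the wells. The median of Tyms was 418.2 CPM in control and 766.6 in NKX1-2 wells of morula replicate 1, while single wells of both groups overlap.

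For the 3 leading genes no single well held a large part of a sum. The well with the most counts gave 4.60% to 9.68% of the Tk1 counts of a sum, 4.45% to 5.83% of the Tyms counts and 6.64% to 10.0% of the Rrm1 counts. For Samhd1 a single well gave up to 66.7% of a sum. The median well moved as the sums did: Tk1 went from 159.3 CPM in control to 388.4 in NKX1-2 wells of morula replicate 1, and Rrm1 from 132.5 to 48.01 in blastocyst replicate 2. Among wells of the same sum, Tk1 and Tyms were hardly related, with Spearman coefficients of 0.01 to 0.37 over the 8 sums and a median of 0.11, and Tk1 and Rrm1 had a median of 0.04. Wells of 1 sum share a plate and a library, and single-well counts are low, so these coefficients are a description.

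The second question was how the members differ between the stages. In control wells Rrm1 was higher in both blastocyst plates (106.1 and 144.4 CPM) than in both morula plates (52.8 and 43.2), and it rose by 1.69 ± 0.23 on the log2 scale, 3.22-fold (edgeR, adjusted p = 4.53e-06). Dut rose by 1.02 ± 0.17 (adjusted p = 4.79e-05), Dctpp1 by 0.84 ± 0.19 (adjusted p = 0.00114) and Rrm2 by 0.65 ± 0.16 (adjusted p = 0.00287), each with plates that did not overlap. How many of all genes had plates that did not overlap was not counted, so this adds nothing to the tests. Tk1 fell by 1.02, to 0.493 of its morula level (SE 0.22, adjusted p = 6.09e-04). Tyms (0.24 ± 0.17, adjusted p = 0.25) and Samhd1 (-0.73 ± 0.51, adjusted p = 0.27) did not pass. So 4 members passed as higher and 1 as lower in control wells. Of all 9577 genes tested, 20.1% passed as higher and 21.6% as lower, so stage calls are common here.

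The balance of the 2 thymidylate enzymes between the stages can also be read without scaling: 0.438 and 0.527 Tk1 counts for each Tyms count in control morula plates against 0.205 and 0.200 in blastocyst plates. For each Rrm1 count, control wells held 3.48 and 6.03 Tk1 counts in the morula and 0.809 and 0.640 in the blastocyst.

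In NKX1-2 wells the same 4 members passed as higher and the same 1 as lower. Rrm1 rose by 1.19 ± 0.26 (adjusted p = 0.00103), from 32.0 and 23.8 CPM to 47.4 and 57.0. Dctpp1 rose by 0.97 ± 0.17 (adjusted p = 1.49e-04) and Dut by 0.88 ± 0.14 (adjusted p = 8.29e-05). Tk1 fell by 0.64 (SE 0.14, adjusted p = 0.00142), from 376.0 and 385.2 CPM to 191.2 and 209.5. Rrm2 passed narrowly with 0.33 ± 0.13 (adjusted p = 0.0481), although its plates overlap in CPM. Tyms (0.29 ± 0.13, adjusted p = 0.0749) and Samhd1 (-0.66 ± 0.36, adjusted p = 0.15) did not pass. Of all 10221 genes tested there, 21.9% passed as higher and 24.0% as lower.

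**Figure D5:**
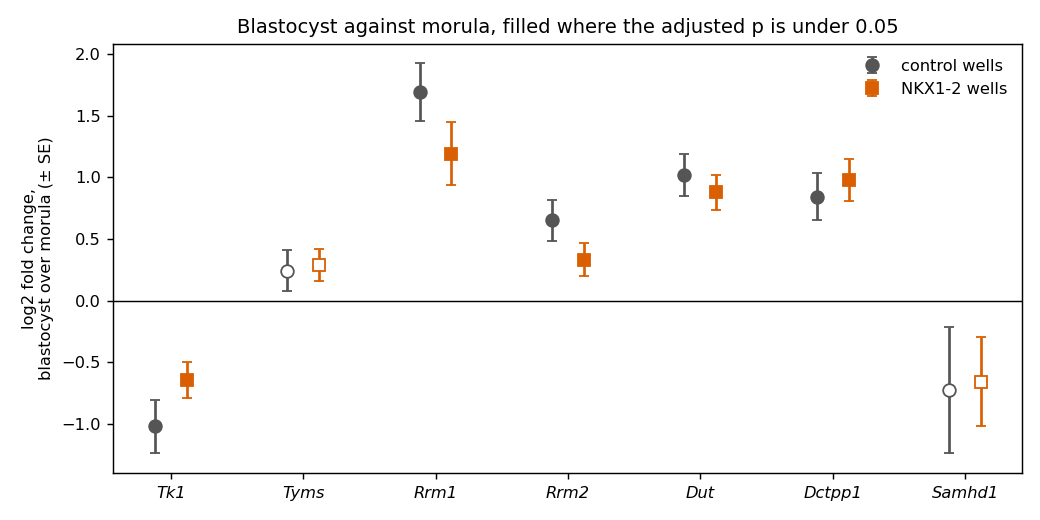
Log2 fold change of blastocyst over morula ± SE (y axis) for each gene (x axis), control as circles and NKX1-2 as squares, filled where the adjusted p is under 0.05. Rrm1, Dut, Dctpp1 and Rrm2 lie above 0 and Tk1 below it in both groups, and Tyms and Samhd1 are open.

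The stage values depend on how libraries are scaled. The fit centres on the typical gene, and scaling by library totals alone lowers the median of all genes by 0.28 in control and 0.26 in NKX1-2 wells, and the calls shift from 1921 higher and 2072 lower to 1258 and 2881 in control wells, and from 2242 and 2448 to 1548 and 3312 in NKX1-2 wells. Rrm1, Dut, Dctpp1 and Tk1 passed in the same direction under both scalings, in both groups. Rrm2 passed under totals in neither (0.37, adjusted p = 0.0729, and 0.07, adjusted p = 0.68), and Tyms in control wells turned to -0.04. Leaving out 1 plate ended some calls narrowly: without morula replicate 2, Tk1 (adjusted p = 0.0572) and Rrm2 (0.0542) in control wells, and without morula replicate 1, Dctpp1 (0.0571) there. In NKX1-2 wells, Rrm1 without blastocyst replicate 2 (0.0509) and Tk1 without blastocyst replicate 1 (0.0514) missed the threshold. In the wells with Xist and no Y-linked count, Rrm1 passed in control wells (2.04, adjusted p = 0.00172), while Dut (0.38, adjusted p = 0.24), Tk1 (-0.93, adjusted p = 0.0860), Dctpp1 (adjusted p = 0.0718) and Rrm2 (adjusted p = 0.12) did not. Over 16 alternatives in control wells the adjusted p ran up to 0.00172 for Rrm1 and up to these values for the other 4.

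Genes that work beside the members were read from 5 lists of nucleotide enzymes with 75 genes other than the members, 54 of which were tested between the morpholinos. On average over the stages 2 passed as higher and 1 as lower, beside 2.9% of all genes in either direction. The median over the 54 was 0.00 against -0.01 for all genes. Dtymk, the kinase that phosphorylates thymidylate and so acts just after Tk1 and Tyms, stood at 313.8 CPM in control and 418.1 in NKX1-2 wells of morula replicate 1, 364.6 and 460.7 in replicate 2, 245.6 and 464.0 in blastocyst replicate 1, and 344.4 and 428.0 in replicate 2. It was higher on all 4 plates, without overlap, and rose by 0.47 ± 0.10 on average (edgeR, adjusted p = 0.0158). The call was lost in 4 of 15 alternatives, among them DESeq2 and leaving out either morula plate, with adjusted p between 1.04e-10 and 0.20.

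Pnp, the purine nucleoside phosphorylase of the salvage route, fell by 0.90 on average (SE 0.18, adjusted p = 0.0144) and by 1.39 in the blastocyst (SE 0.28, adjusted p = 0.0285), where it stood at 62.8 and 38.3 CPM in control and 20.9 and 17.5 in NKX1-2 wells. In the morula it stood at 52.8 CPM in control and 30.3 in NKX1-2 wells of replicate 1 and at 42.3 and 42.5 in replicate 2. Its average call was lost in 2 of 15 alternatives, without morula replicate 1 (adjusted p = 0.25) and with DESeq2 (0.19), and its blastocyst call in 3 of 16, with an adjusted p of up to 0.30. Of its sequence, 17.5% of the 31-base stretches occur in another gene model. Ak6 rose by 0.40 ± 0.10 (adjusted p = 0.0440), but 56.0% of its stretches occur in Taf9, so its counts are uncertain, and the call was lost in 7 of 15 alternatives, among them DESeq2, limma voom and leaving out morula replicate 1 (adjusted p = 0.41) or 2 (0.36). In the blastocyst edgeR called Pnp alone of the 54, and DESeq2 and limma voom called 0. By edgeR 0 passed for morula wells, where 4 had an unadjusted p under 0.05 and DESeq2 and limma voom also called 0. For the difference between the stages 0 of 54 passed, 5 had an unadjusted p under 0.05 and the other tools called 0.

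By list, 1 of 15 tested genes of thymidylate synthesis and salvage passed as higher and 1 as lower on average (median -0.02), and 1 of 11 further kinases and reductase genes passed as higher (median 0.05). Of nucleotide pool cleaning (12 tested, median 0.00), purine synthesis (12, median 0.08) and pyrimidine synthesis (4, median -0.04), edgeR called 0, with 3, 2 and 0 genes at an unadjusted p under 0.05, and DESeq2 and limma voom called 0 as well. Rrm2b, the alternative small subunit of the reductase that p53 can induce, had 2.97 to 17.9 CPM and an average difference of -0.01 ± 0.27 (adjusted p = 1.00).

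Cell-cycle lists were read against the 2.9% of all genes called on average. Of 53 tested S-phase replication genes, 2 passed as higher on average and 0 as lower, with a median of 0.05. Cdc45, a part of the replicative helicase, rose by 0.88 ± 0.14 on average (edgeR, adjusted p = 0.00302). This average call was lost in 1 of 15 alternatives, with an adjusted p of up to 0.40. In the blastocyst Cdc45 rose by 1.14 ± 0.22 (edgeR, adjusted p = 0.0251), where DESeq2 and limma voom called 0 S-phase genes. That blastocyst call was lost in 4 of 16 alternatives, without blastocyst replicate 2 (adjusted p = 0.0544) and with an adjusted p of up to 0.62. Rfc4, a subunit of the clamp loader, rose by 0.98 ± 0.19 (adjusted p = 0.0179), and each of its 15 alternatives kept the call, with a highest adjusted p of 0.0349. Of 18 mitosis genes 1 passed, Kif20a, a kinesin of cytokinesis, with 0.69 ± 0.17 (adjusted p = 0.0408), a call lost in 6 of 15 alternatives, among them DESeq2, limma voom and leaving out morula replicate 1 (adjusted p = 0.52) or 2 (0.13), with an adjusted p of up to 0.60. Among 16 E2F and control factors edgeR called 0 on average, 1 had an unadjusted p under 0.05, and DESeq2 and limma voom called 0. None of these genes passed the test of the difference between the stages. Opposite-strand genes overlap 29.3% of the exonic bases of Kif20a, 12.7% of those of Rfc4 and 5.96% of those of Cdc45. Whether strand was used in counting is not known.

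Between the stages, 10 of 50 tested nucleotide list genes passed as higher and 6 as lower in control wells (median 0.13). Of all genes tested there, 20.1% passed as higher and 21.6% as lower. In NKX1-2 wells 17 of 52 passed as higher and 7 as lower (median 0.24), beside 21.9% and 24% of all genes. Purine synthesis split: Gart, which carries several steps of the pathway, rose by 1.51 ± 0.20 (adjusted p = 1.65e-06) and Impdh2 by 1.03 ± 0.16 (adjusted p = 1.63e-05) in control wells, while Impdh1 fell by 1.21 (SE 0.19, adjusted p = 2.40e-05). The kinases Nme2 and Ak4 rose by 1.38 ± 0.22 and 1.30 ± 0.20 (edgeR, adjusted p = 3.45e-05 and 1.98e-05). Of the exonic bases of Nme2, 48.9% overlap Gm20390 on the same strand, so its counts are uncertain. On the opposite strand, Gm15964 overlaps 19.7% of those of Gart. Dguok, the mitochondrial deoxyguanosine kinase, rose by 1.36 ± 0.37 (adjusted p = 0.00543), a call lost without morula replicate 2 (adjusted p = 0.0596) or blastocyst replicate 2 (adjusted p = 0.11). Rrm2b fell in NKX1-2 wells by 1.41 (SE 0.46, adjusted p = 0.0169), a call lost without morula replicate 2 (adjusted p = 0.0652) or blastocyst replicate 2 (0.18), and in control wells its value was -0.95 ± 0.47 (adjusted p = 0.11).

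Of 15 tested E2F and control factors, 2 rose and 4 fell from morula to blastocyst in control wells, with a median of -0.19. Of all genes tested in these wells, 20.1% passed as higher and 21.6% as lower. E2f1, an activator of S-phase genes, fell by 1.89 (SE 0.39, adjusted p = 4.55e-04) and Myc by 3.22 (SE 0.44, adjusted p = 3.82e-06). E2f3, another activator, rose by 1.47 ± 0.52 (adjusted p = 0.0266), and Cdkn1a, an inhibitor of cyclin-dependent kinases, rose by 0.98 ± 0.21 (adjusted p = 5.87e-04). The E2f3 call was lost in 6 of 14 alternatives, with an adjusted p of up to 0.27, and the Cdkn1a call in 2 of 16, with an adjusted p of up to 0.0789. Cdt1, which licenses replication origins, fell by 1.501 (SE 0.19, adjusted p = 1.21e-06), and Mcm4, a helicase subunit, rose by 1.29 ± 0.27 (adjusted p = 4.75e-04). In control wells 7 of 52 S-phase genes passed as higher and 9 as lower, beside the same 20.1% and 21.6% of all genes.

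Over the 8 sums, Tk1 and Rrm1 had nearly opposite profiles, with a Pearson coefficient of -0.97 of log2 CPM. Of 4927 named genes at 20 CPM or more, those most like Rrm1 were Twf1 (0.97), Eif4a2 (0.97) and Rab18 (0.97). Those most like Tk1 were Lsm4 (0.98), Ruvbl2 (0.98) and Spop (0.97), and those most like Tyms were Psma7 (0.93), Cops9 (0.93) and Banf1 (0.93). Rrm2 stood nearer to Rrm1 (0.82) than Tyms did (-0.63). The 8 points share plates, stages and morpholinos, so the coefficients are a description and carry no test.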

How the data were processed

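The deposited tables hold whole-number counts per gene and well, 1 matrix for each of 4 plates. Per the submitters' processing notes the authors used TopHat2 and the mouse builds GRCm38 and mm10; the counting tool, its use of strand and whether a count is a read or a molecule are not given in the labels. A deposited list of well barcodes gave the morpholino, and all 96 barcodes recur on every plate as well positions. In the morula plates 344 neighbouring genes, 9 of them on the gene lists, had no counts and were left out.

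Counts of wells with at least 2000 genes were summed by plate and morpholino. edgeR 4.0.16 (R 4.3.3) was fitted with filterByExpr, TMM factors and a robust quasi-likelihood test, with all 8 sums and plate as a block for the morpholinos and with 4 sums for each stage comparison. Calls use Benjamini-Hochberg adjusted p under 0.05 over all genes tested. The SE of a fold change was derived from the test's F value. On simulated data the average fit recovered 67% of 2-fold and 78% of 4-fold changes (10628 genes). It had 20 unchanged genes among its 165 calls, a larger share than the threshold of 0.05. The control stage fit recovered 51% and 85% (9550 genes), with 7 unchanged genes among 143 calls. The error of the real stage test is the spread between plates, since that fit has no plate block. Whether the simulated sums carried this spread is not shown. The simulated stage values therefore do not give the recovery or false-call rate of the real stage test.

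Named genes are the 7 members, up to 6 genes past the threshold from each list and comparison, of which some are printed, Tyms-ps, and the 3 genes most like each of Rrm1, Tyms and Tk1. Members and lists were chosen with earlier results of these data known. Gene models are from GENCODE M21. DESeq2 1.42.0, limma 3.58.1 (voom) and the other alternatives are given in the closing section.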

Additional observations from a re-analysis of the deposited data

How the results depend on the processing

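Counts of called genes moved with the settings. With DESeq2 they were 15 (morula), 21 (blastocyst), 60 (average), 1 (difference of the stages), 2513 (stage, control) and 2998 (stage, NKX1-2), against 60, 79, 315, 2, 3993 and 4690. Without the low-count filter the first 4 were 179, 254, 532 and 27, and without the plate block 34, 43, 185 and 1. Wells with Xist and no Y-linked count gave 8, 14, 36, 0, 1602 and 2684, on fewer wells. Leaving the highest well of each sum out gave 92 and 127 for the 2 stages, and plates of the stage alone 834 and 123. limma voom gave 50 for the blastocyst. The difference of the stages had 1 call with every well, limma voom or no robust fit. In the main edgeR fit, with 2 calls, 699 genes had an unadjusted p under 0.05. Leaving out 1 plate gave 13 to 838, 99 to 635, 92 to 1071, 4 to 252, 2586 to 4213 and 2266 to 3592 calls; there the lone plate of a stage is assumed to vary like the others. The cause was not tested.

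The Samhd1 stage value in control wells turned to 0.38 in wells with Xist and no Y-linked count, and that of Tyms to -0.0356 with library totals only, a setting added after the data were seen. The Rrm2 stage call in NKX1-2 wells was lost in 10 of 16 alternatives. Between the morpholinos, Tk1, Tyms and Rrm1 kept their direction in every alternative run, at either stage. That contrast chose these genes and the alternatives reuse the same wells, so this is a description and no test.

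With replicate number as a block, 3691 genes were called between the stages in control and 4732 in NKX1-2 wells. Sums of the same number but different stage did not deviate together (correlation 0.03 in control and -0.002 in NKX1-2 wells). Sums that share a plate gave 0.26 in the morula but -0.0007 in the blastocyst. A value near 0 therefore cannot decide whether the numbers pair plates.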
